A study of Drosophila melanogaster with 2 samples.

Results

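The odorant-binding protein (Obp) genes were examined for binding of the DM-domain transcription factor Dmrt99B in the Drosophila melanogaster embryo. Members were the protein-coding genes whose symbol in the Ensembl annotation begins with Obp and a digit, which gave 51 of 13945 protein-coding genes on the chromosome arms. The data were chromatin immunoprecipitation and sequencing (ChIP-seq) peaks from whole embryos of mixed sex, aged 6 to 16 h, of a transgenic line in which dmrt99B is fused at its C terminus to eGFP. The labels describe an immunoprecipitation with an antibody against GFP, although their antibody entry names dmrt99B, and give a size range of 200 to 800 after sonication. There was 1 group, with biological replicates numbered 3 and 4, so no conditions could be compared. Both replicates carry the fusion, and how much DNA around dmrt99B the transgene holds is not given in the sources used here. A peak's summit was counted for a gene when it lay in the gene body or when the gene's transcription start site (TSS) was the nearest protein-coding one. The thresholded list held the 7838 peaks that passed the authors' cutoff on the irreproducible discovery rate (IDR), which measures how well peaks recur between replicates, and each relaxed list (pooled, replicate 3 and replicate 4) held 30000 peaks, most of them weak. Signal values are the authors' own score for a peak. Their scale is not stated and differs between lists, so levels are read only within a list, and rank 1 is the strongest peak. Read depth is unknown.

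Odorant-binding proteins are small secreted proteins held together by conserved cysteines. Support cells of insect sensilla release them into the lymph around the sensory dendrites, where they are known to bind hydrophobic odorants and pheromones. Many Drosophila members are also made elsewhere, in taste organs, fat tissue, glia or the male reproductive tract. The genes are short and often lie in tandem clusters. The 4 Obp99 genes flank dmrt99B itself and are therefore set apart from the other 47 in each count.

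The sequences at the 5 strongest IDR summits assigned to Obp genes of arm 3R are shown, strongest first. They cover summits within 1000 bp of the TSS for Obp99b and Obp83g, but not those of Obp99c and Obp46a. Each is a window of 201 bp centred on an IDR summit, read 5′ to 3′ on the plus strand of the RefSeq release 6 assembly. Capitals mark matches, on either strand, to GAGAG, to TATAAA, to CAGTGTA, and to GGCGCCATC, a run that was noticed on reading the first window.
Obp99b, chr3R:29717042-29717242: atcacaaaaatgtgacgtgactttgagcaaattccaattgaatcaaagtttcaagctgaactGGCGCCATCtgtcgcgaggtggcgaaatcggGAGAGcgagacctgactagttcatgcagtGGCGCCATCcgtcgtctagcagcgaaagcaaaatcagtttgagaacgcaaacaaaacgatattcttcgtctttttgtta
Obp99c, chr3R:29690522-29690722: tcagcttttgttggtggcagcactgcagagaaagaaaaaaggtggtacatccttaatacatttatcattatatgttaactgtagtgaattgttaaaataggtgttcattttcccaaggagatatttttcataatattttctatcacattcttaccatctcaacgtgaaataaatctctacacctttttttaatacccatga
Obp99b, chr3R:29717621-29717821: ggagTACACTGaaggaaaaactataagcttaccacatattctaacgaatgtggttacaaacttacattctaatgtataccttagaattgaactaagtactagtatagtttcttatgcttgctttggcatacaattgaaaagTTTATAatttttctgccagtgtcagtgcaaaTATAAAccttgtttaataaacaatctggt
Obp83g, chr3R:6112448-6112648: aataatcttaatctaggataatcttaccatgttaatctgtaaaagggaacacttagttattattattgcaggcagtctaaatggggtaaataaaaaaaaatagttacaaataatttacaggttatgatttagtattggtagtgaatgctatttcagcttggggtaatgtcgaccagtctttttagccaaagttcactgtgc
Obp99d, chr3R:29705869-29706069: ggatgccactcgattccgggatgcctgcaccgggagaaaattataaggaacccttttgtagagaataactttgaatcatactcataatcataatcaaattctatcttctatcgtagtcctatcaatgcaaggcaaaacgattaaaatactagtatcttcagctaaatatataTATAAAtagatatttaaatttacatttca
In the first window, centred 246 bp upstream of the Obp99b TSS, GGCGCCATC occurred in 2 copies and GAGAG lay between them. The same run occurred once more in the window at the summit just beyond the other end of Obp99b. Of all 7838 IDR summit windows, 32 (0.408%) held this run, and the 2 at Obp99b were the 2 found among the 26 windows of Obp genes. The run was chosen from these windows, so its count is a description. The windows of Obp99c and Obp83g held none of the runs searched, and their GC content was 31.3% each, against 45.3% in the first Obp99b window.

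An IDR summit was assigned to 14 of the 51 Obp genes (27.5%, 95% Wilson interval 17.1 to 40.9%), beside 27.8% of all protein-coding genes. The members were Obp28a, Obp46a, Obp47a, Obp51a, Obp56g, Obp56h, Obp56i, Obp57a, Obp57c, Obp83cd, Obp83g, Obp99b, Obp99c and Obp99d. The share was thus close to the background, and 37 Obp genes had no IDR summit. Among the Obp99 genes 3 of 4 were called (75%, 30.1 to 95.4%), and among the others 11 of 47 (23.4%, 13.6 to 37.2%). In the pooled relaxed list 22 of 51 had a summit (43.1%, 30.5 to 56.7%), beside 42.3% of all genes. These intervals cover counting error over genes only, and neighbouring Obp genes share sequence between them, so they are not independent. No test over samples was possible with 1 group.

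Few of the summits lay at the start of an Obp gene. An IDR summit lay within 1000 bp of a TSS in 4 Obp genes, Obp46a, Obp83g, Obp99b and Obp99c (7.84%, 3.09 to 18.5%), beside 20.1% of all genes. At 500 bp the count was 3 of 51, beside 16.1% of all genes, and at 5000 bp it was 17 (33.3%), beside 40.5%. Outside the Obp99 genes the count within 1000 bp was 2 of 47 (4.26%, 1.17 to 14.2%). In the relaxed list 10 Obp genes (19.6%, 11.0 to 32.5%) had such a summit, beside 34.0% of all genes. No IDR summit lay inside an Obp gene body, 0 of 51, for which the limit of 3 counts is 5.88% and the upper Wilson bound 7.0%, beside 14.8% of all genes. Obp genes are short, with a median body of 788 bp against 2166 bp over all genes. Among the 6520 genes of up to 2000 bp, 2.10% had an IDR summit in the body and 12.0% had one within 1000 bp of a TSS. The 47 Obp genes in that size class had 0 in the body and 3 (6.38%, 2.19 to 17.2%) within 1000 bp, an interval that includes the share of short genes. By the main assignment, 12 of these 47 (25.5%, 15.3 to 39.5%) were called, beside 16.6% of short genes.

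**Figure D1:**
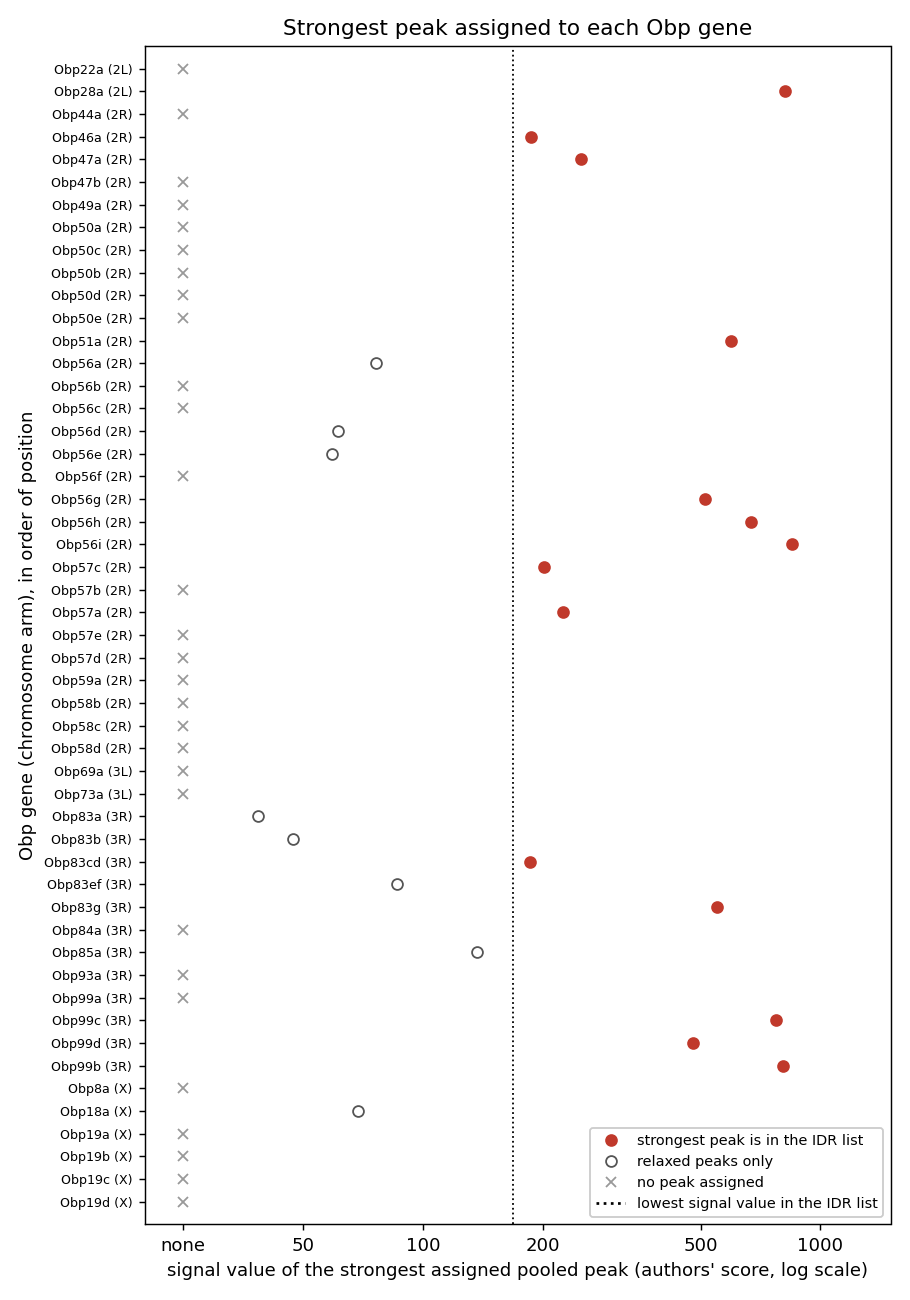
Signal value of the strongest pooled peak assigned to each of the 51 Obp genes (horizontal axis, the authors' score on a log scale), in order of position, with the chromosome arm in brackets. Filled points are the 14 genes with an IDR summit, open points the 8 with relaxed peaks only, crosses the 29 with none, and the dotted line the lowest signal value in the IDR list, 169.

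The Obp99 genes lie on both sides of dmrt99B on arm 3R, in the order Obp99a, Obp99c, dmrt99B, Obp99d, Obp99b. Of the 26 IDR summits assigned to Obp genes, 8 belonged to Obp99b, Obp99c and Obp99d, and another 4 were assigned to dmrt99B. The nearest edge of the gene body lay 3280 bp from dmrt99B for Obp99c, 17480 bp for Obp99d, 19229 bp for Obp99b and 20257 bp for Obp99a. Of the Obp99 genes, the nearest to dmrt99B therefore had 2 assigned IDR summits, those at intermediate distances 3 each, and the farthest none.

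Obp99b (chr3R:29716254-29716896, minus strand), also named tsx and known for sex-biased expression in adult head fat tissue, had the strongest of the Obp99 summits. The summit 246 bp upstream of its TSS had a signal value of 803 in the pooled list (rank 1426), 532 in replicate 3 (rank 1582) and 287 in replicate 4 (rank 1067). The second, 825 bp upstream, had 607 pooled (rank 2013), 446 in replicate 3 (rank 1968) and 177 in replicate 4 (rank 2065). Both were well inside the strong part of every list. The summit 55 bp beyond the gene's far end was weak, with 182 pooled (rank 7304), 123 in replicate 3 (rank 8006) and 61.8 in replicate 4 (rank 6572). Dup99B, which encodes a seminal peptide related to sex peptide, lies between Obp99d and Obp99b and had no summit of its own by nearest TSS, although an IDR summit lay within 1000 bp of its start. CG15506, the next gene beyond the Obp99b start and on the plus strand, was not assigned an IDR summit either. The summit 825 bp upstream of Obp99b also lay within 1000 bp of the CG15506 start.

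Obp99c (chr3R:29685736-29689311, minus strand) faces the dmrt99B promoter across 3279 bp, and that stretch held 4 IDR and 7 pooled summits. The stronger Obp99c summit, 1311 bp upstream of its TSS, had a signal value of 773 in the pooled list (rank 1494), 558 in replicate 3 (rank 1484) and 234 in replicate 4 (rank 1423). The summit 208 bp upstream was weaker, at 212 pooled (rank 6362), 153 in replicate 3 (rank 6523) and 79.1 in replicate 4 (rank 5127). The other 2 IDR summits of the stretch lay 226 and 24 bp upstream of the dmrt99B TSS, at pooled signal values of 398 and 228. Obp99c was also the only Obp99 gene with relaxed summits in its body, 2 in introns at 96.5 and 88.7.

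Obp99d (chr3R:29714505-29715004, plus strand) had 3 IDR summits, all upstream, in the 17479 bp between dmrt99B and its own start. The farthest, 8536 bp from the TSS, was the strongest, at 478 in the pooled list (rank 2699), 348 in replicate 3 (rank 2690) and 127 in replicate 4 (rank 3084). The next, 2872 bp away, had 333 pooled (rank 4007), 245 in replicate 3 (rank 3979) and 88.3 in replicate 4 (rank 4581). The nearest, 1248 bp away, stood at 232 pooled (rank 5815) and 163 in replicate 3 (rank 6112), and its nearest summit in replicate 4, 69 bp away, fell outside the 7838 strongest (30.7, rank 13443). A stronger summit of replicate 4 lay 138 bp away (73.7, rank 5510). That interval held 5 IDR and 17 pooled summits in all, 2 of the IDR summits being assigned to dmrt99B. When start sites of all gene kinds competed, Obp99d was no longer called.

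Obp99a (chr3R:29671657-29672334, plus strand) had neither an IDR nor a pooled relaxed summit, and its TSS lay 17862 bp from the nearest IDR summit. The 13401 bp between Obp99a and Obp99c, which hold genes such as Bub3 (a spindle checkpoint protein), Cap-D2 (a condensin subunit) and Gycalpha99B (a guanylate cyclase subunit), had 0 IDR and 0 pooled summits. From the start of Obp99a to the end of Obp99b, a stretch of 45240 bp, there were 10 IDR summits, or 2.21 per 10 kb, beside 0.55 per 10 kb on the whole arm. For pooled summits the figures were 28, or 6.19 per 10 kb, beside 2.09. Within 20 kb of the TSS, Obp99b had 9 IDR summits, a number that 3.44% of all genes reached, Obp99d had 8 (5.68%), Obp99c had 7 (8.79%) and Obp99a had 3 (43.9%). In bins of 20 kb from the dmrt99B TSS, the 3 bins from -20 to 40 kb held 4 IDR summits each. The bin from 60 to 80 kb, beyond the Obp99 genes, also held 4, and those from 80 to 100 kb and from -80 to -60 kb held 3 each, so a count of this size was not limited to the Obp99 stretch. The transgene may hold DNA of this locus, and its part in these summits was not tested.

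**Figure D2:**
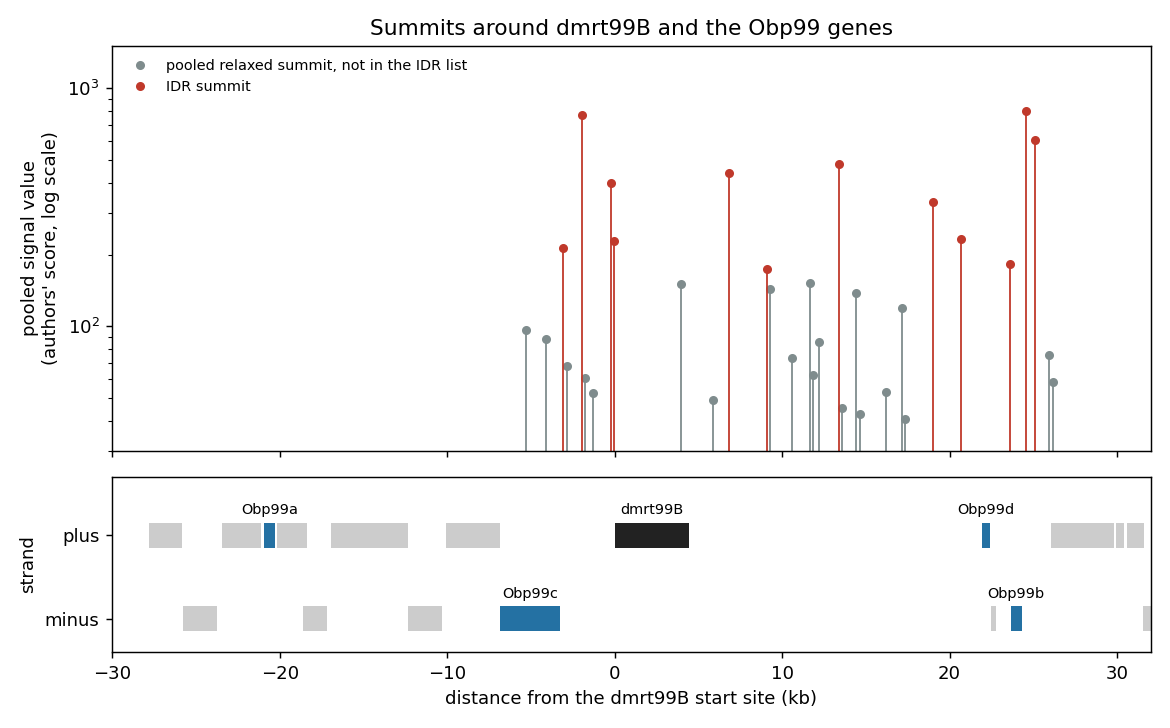
Summits around dmrt99B, with distance from its TSS in kb on the horizontal axis and the pooled signal value (authors' score, log scale) above. Red stems are IDR summits and grey stems pooled relaxed summits outside the IDR list; the lower panel shows protein-coding gene bodies by strand, with Obp99 genes in blue, dmrt99B in black and other genes in grey. Between Obp99a and Obp99c there is no summit of either list.

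Of the 18 IDR summits assigned to Obp genes outside the Obp99 group, 2 lay within 1000 bp of the TSS and 12 lay over 5000 bp away, with a median of 8084 bp. Obp83g (chr3R:6111671-6112302, minus strand) had the strongest promoter summit of these. It lay 246 bp upstream of the TSS, with a signal value of 550 in the pooled list (rank 2280), 365 in replicate 3 (rank 2528) and 185 in replicate 4 (rank 1929). Its neighbour Obp83cd, whose protein carries a pair of OBP domains, had 1 weak IDR summit 1403 bp upstream, at 186 pooled (rank 7158), 151 in replicate 3 (rank 6613) and 29.7 in replicate 4 (rank 13920). The replicates thus ranked the Obp83g summit alike and the Obp83cd summit far apart. Obp83ef, the gene between them and of the same paired-domain type, had no IDR summit, but its TSS was the nearest to one among such genes, at 1514 bp. Within 20 kb of Obp83cd there were 30 pooled summits, a number reached by 1.28% of all genes, and only 3 of them IDR summits.

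Obp46a, of the Plus-C class with additional cysteines, was the other gene with a promoter summit. That summit lay 868 bp upstream and was weak, with 187 in the pooled list (rank 7137), 112 in replicate 3 (rank 8724) and 64.1 in replicate 4 (rank 6333). It missed the 7838 strongest peaks of replicate 3.

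The strongest summit of any Obp gene was assigned to Obp56i. It lay 4279 bp upstream in an intron of the non-coding gene lncRNA:CR44571, with a signal value of 850 in the pooled list (rank 1300), 636 in replicate 3 (rank 1224) and 215 in replicate 4 (rank 1611). Obp56i had 2 further IDR summits, 6992 bp (454) and 10415 bp (172) upstream, and 33 pooled summits within 20 kb of its TSS, which 0.667% of all genes reached. Obp56h, known for a role in male mating behaviour, had its stronger summit 9460 bp upstream at 668 (rank 1786), 471 in replicate 3 (rank 1835) and 196 in replicate 4 (rank 1821). Its second summit, 11471 bp upstream, stood at 193. Obp56g, a seminal fluid protein, had 1 summit 10389 bp upstream, at 511 pooled (rank 2490), 405 in replicate 3 (rank 2226) and 99.4 in replicate 4 (rank 4032). All 6 of these summits lay upstream of their gene, and none was within 1000 bp of its TSS. When start sites of all gene kinds competed, Obp56g, Obp56h and Obp56i were no longer called.

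For 3 genes the summits lay in introns of other protein-coding genes, 5 of the 26 in all. Obp28a, an abundant antennal OBP that has been tied to odour sensitivity, was assigned 2 summits in introns of RapGAP1, which encodes a GTPase activator of Rap1. The farther, 15646 bp upstream, had 812 pooled (rank 1406), 585 in replicate 3 (rank 1397) and 220 in replicate 4 (rank 1564), and the nearer, 8700 bp upstream, had 221 pooled. Another IDR summit lay 1120 bp from the Obp28a TSS but closer to the start of another gene, and is not counted here. Obp51a, a seminal fluid protein, was assigned 2 summits 10051 and 10252 bp upstream in introns of hbs, which encodes an adhesion protein of the Nephrin family, at 596 (rank 2069) and 328 (rank 4072). The summits at RapGAP1 and hbs ranked inside the 7838 strongest peaks of both replicates. Obp57c was assigned a summit 32295 bp away in an intron of side-VIII, a cell-surface gene of the sidestep family, at 202, and an intergenic one 4555 bp upstream at 184. The rule gives such a summit to the nearest start site, which need not be the gene it acts on.

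The remaining called genes were Obp47a and Obp57a, and both had their IDR summits downstream. Those of Obp47a lay 5014 and 7467 bp from the TSS, at 250 (rank 5405) and 223 (rank 6070). That of Obp57a lay 2687 bp away, at 225 (rank 5997). All 3 ranked below the middle of the IDR list.

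Over all 26 summits, 20 were intergenic, 6 intronic and 0 exonic, and 22 lay upstream of the gene they were assigned to. Their median distance to the TSS was 4784 bp (range 208 to 32295), against 2094 bp from an IDR summit to its nearest protein-coding TSS over the whole list. Within 1000 bp lay 6 of them (23.1%), beside 36.6% of all IDR summits, and over 5000 bp away lay 13, beside 31.8%. Their signal values ran from 172 to 850 with a median of 289, against 341 for all IDR peaks, and 11 (42.3%) were among the 3919 strongest. The best rank was 1300, so no Obp gene lay at one of the leading peaks. Of the 26 summits, 5 (19.2%) lay in a protein-coding gene body, beside 63.0% of all IDR summits. Obp bodies are short and held no IDR summit, so the assignment rule itself shapes this contrast. The share lying upstream was not computed over all IDR summits.

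Each of the 26 summits had a summit within 200 bp in the relaxed list of each replicate, as did 7760 of all IDR summits. Of the 26, 20 (76.9%) had their nearest summit among the 7838 strongest peaks of both replicates, beside 82.1% of all. Taking any summit within 200 bp, a count added after seeing the data, gave 21 (80.8%, beside 83.9%), with the Obp99d summit added. By nearest summit, the exceptions were 1 summit each of Obp46a, Obp56i and Obp99b, weak in replicate 3, and 1 each of Obp57c, Obp83cd and Obp99d, weak in replicate 4. All 6 had pooled signal values below 250, the value of the stronger Obp47a summit, so the disagreement between replicates lay at the weak end.

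**Figure D3:**
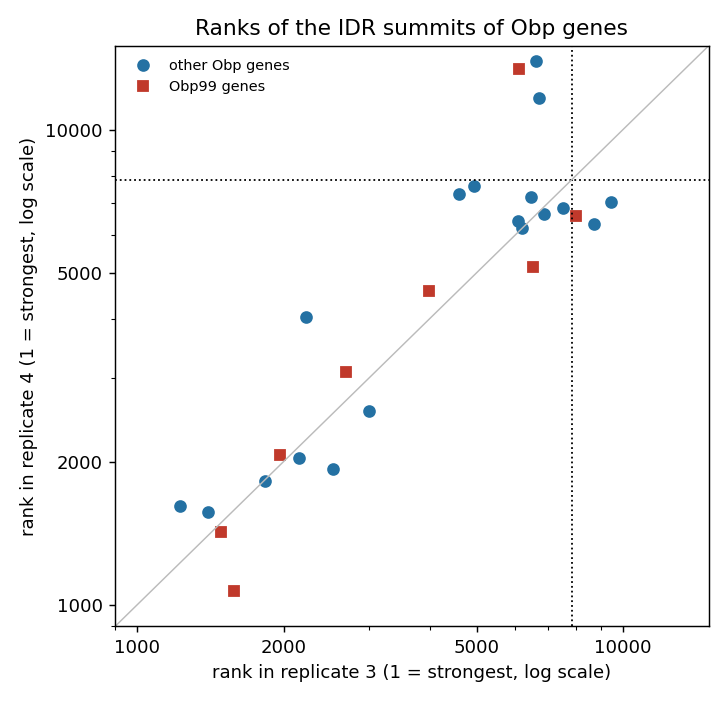
Rank of the nearest summit to each of the 26 IDR summits of Obp genes in the relaxed list of replicate 3 (horizontal) and replicate 4 (vertical), both on log scales with 1 as the strongest peak. Squares are the 8 Obp99 summits, circles the 18 others, the grey line marks equal ranks and dotted lines rank 7838; 20 summits lie inside both dotted lines.

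Going from the IDR to the pooled list raised the share of Obp genes called from 27.5 to 43.1%, beside 27.8 to 42.3% of all genes. Relaxed peaks alone were assigned to 8 Obp genes. Their strongest pooled signal values were 137 for Obp85a, 86.3 for Obp83ef, 76.3 for Obp56a, 68.6 for Obp18a, 61.1 for Obp56d, 59.1 for Obp56e, 47.3 for Obp83b and 38.5 for Obp83a. All fall below the lowest IDR value of 169 by construction, because the IDR list holds the 7838 strongest pooled peaks. Obp83a and Obp83b are the OBPs classically known as OS-F and OS-E, made in the pheromone-sensing trichoid sensilla of the antenna. Both stood near the bottom of the relaxed list, whose lowest value was 38.0. Obp83b had no summit in the list of replicate 3 and Obp83a none in that of replicate 4, while the other 20 genes with a pooled summit had one in both replicates. Obp85a was the Obp gene farthest from an IDR summit, at 32943 bp.

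Relaxed summits inside an Obp gene body numbered 10, in 4 genes, Obp56i, Obp83cd, Obp83ef and Obp99c (7.84% of 51), beside 23.4% of all genes. The strongest was in an exon of Obp83cd at 150 (rank 8777), followed by 146 (rank 8923) in an intron of Obp56i. Summits in exons occurred in Obp83cd, Obp83ef and Obp56i. The 23.4% covers genes of all lengths, and no share of short genes was computed for relaxed summits in the body. For IDR summits in the body the share was 14.8% over all genes and 2.10% over genes of up to 2000 bp. Obp56i and Obp99c have longer bodies than that, 3998 and 3576 bp.

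The pooled relaxed list gave a summit to 43.1% of Obp genes, beside 42.3% of all genes. Having none was thus about as common among all genes. Neither list had a summit for 29 Obp genes. They included the whole Obp50 cluster (Obp50a to Obp50e, in which Obp50b and Obp50c share their annotated start and end), the Obp58 genes with Obp59a, known for a role in humidity sensing, and all 4 Obp19 genes. Also without any were Obp57d and Obp57e, known for taste-guided egg laying, Obp49a, a gustatory OBP involved in the suppression of sweet taste by bitter compounds, Obp69a, tied to pheromone sensing, and Obp44a, made in glia. By position, 33 Obp genes fell into 10 clusters of neighbours within 20 kb, and 18 stood alone. In 6 clusters no member had an IDR summit, namely those of Obp50a, Obp56a, Obp57e, Obp59a, Obp83a and Obp19a. By arm, IDR summits were assigned to 1 of 2 Obp genes on 2L, 8 of 29 on 2R, 0 of 2 on 3L, 5 of 12 on 3R and 0 of 6 on X, beside 28.3%, 25.2%, 28.7%, 26.0% and 32.8% of all protein-coding genes of these arms. The gene lush, which was once called Obp76a and encodes the OBP of the pheromone cVA, falls outside the symbol rule. It had no IDR or pooled summit either, and lay 6239 bp from the nearest IDR summit.

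Measured from the TSS without any assignment, Obp genes were seldom next to an IDR summit and seldom far from one. The median distance was 10867 bp (quartiles 3270 and 15206) against 7351 bp (1829 and 16861) for all genes. The median was 747 bp for the 4 Obp99 genes and 10914 bp for the others. Distances over 20 kb occurred in 4 Obp genes (7.84%), beside 2783 of the 13945 genes. The longest of them was 32943 bp. The median number of IDR summits within 20 kb of a TSS was 2 both for Obp genes and for all genes. To the nearest pooled relaxed summit the medians were 3885 and 3457 bp.

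**Figure D4:**
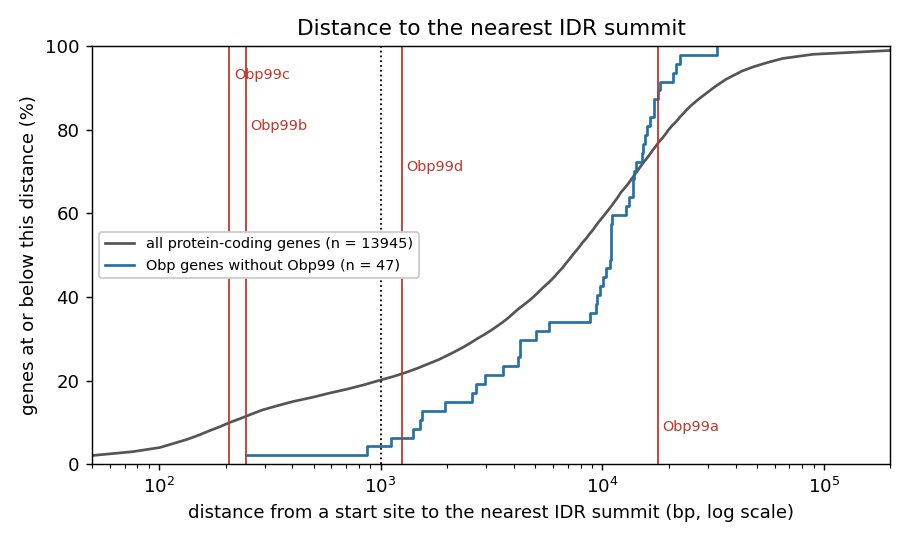
Cumulative share of genes (vertical, percent) by distance from the TSS to the nearest IDR summit (horizontal, bp, log scale) for all protein-coding genes (grey) and the 47 Obp genes outside the Obp99 group (blue). Red lines mark the 4 Obp99 genes and the dotted line 1000 bp; the blue curve stays below the grey one at short distances and crosses it beyond 10867 bp.

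The runs searched in the 26 summit windows were compared with all 7838 windows, on both strands. The core ACAATGT of the site known for DM-domain proteins occurred in 0 of 26 windows, beside 3.99% of all. CAGTGTA, which earlier work on these peaks had picked as the most enriched run of its length, occurred in 4 (15.4%, beside 8.42%), assigned to Obp56i (2 windows), Obp99b and Obp99d. GAGAG, recognised by GAGA factor, occurred in 7 (26.9%, beside 20.6%), and TATAAA in 13, beside 39.9% of all. The E-box CAGCTG occurred in 1 (3.85%, beside 5.75%), and TATCGATA, recognised by DREF, in 0, beside 1.33%. With 26 windows, a count of 0 for a run held by so few of all windows does not show that it is avoided. None of these runs contains another, and a match is not a site of binding. GC content was 33.9% ± 4.52 (SD over 26 windows) against 34.0% ± 7.38 over all windows.

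The promoters of the Obp genes themselves, taken as 250 bp before to 50 bp after the gene's start, were searched for the same runs. TATAAA occurred in 36 of 51 (70.6%), beside 45.8% of all 13945 promoters. TATCGATA, common at promoters of broadly active genes, occurred in 0 of 51, beside 9.36%. ACAATGT occurred in 5 (9.8%), beside 4.62%, in Obp50d, Obp57a, Obp57b, Obp58d and Obp84a. None of these 5 genes had an IDR summit within 1000 bp of its TSS. With a share of only 7.84% over all Obp genes, 5 genes are too few for this to show an absence. The share over all promoters with ACAATGT was not computed. GC content was 40.2% ± 6.52 (SD over 51 promoters) against 39.1% ± 7.74.

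Other chemosensory genes were described by the same rule. IDR summits were assigned to 9 of 60 odorant receptor genes (15.0%), 6 of 60 gustatory receptor genes, 9 of 60 ionotropic receptor genes (15.0%) and 6 of 20 CheA and CheB genes, beside 27.8% of all genes. Summits within 1000 bp of a TSS occurred in 4, 1, 1 and 0 of these genes, beside 20.1%. For genes of up to 2000 bp the shares were 16.6% assigned and 12.0% within 1000 bp. The lengths of these chemosensory genes were not compared here. Orco, the co-receptor on which most odorant receptors depend, had an IDR summit 716 bp from its TSS at a pooled signal value of 518 (rank 2457). Of 8 other odour-handling genes, among them the CD36-like Snmp1 and the antennal esterase Est-6, only Phk-3 was called, at 173. The median distance from TSS to IDR summit was 17576 bp for odorant receptors, 11620 bp for gustatory receptors, 12227 bp for ionotropic receptors, 7270 bp for CheA and CheB genes and 10473 bp for the other odour-handling genes, beside 10867 bp for Obp genes.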

How the data were processed

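ChIP-seq peak lists of 1 group (dmrt99B-eGFP embryos, replicates 3 and 4) were used. The authors deposited, in dm6 coordinates per the labels, a relaxed list for each replicate, a pooled relaxed list and an IDR list, which per the text listing deposited with the samples was derived from the other 3. The aligner was not given in the sources used here, nor was the peak caller. The deposited signal value is a score of the authors' peak caller. The deposited −log10 q values were not used to rank peaks. The deposited offset (an other value, in bp) gave each summit. All 7838 IDR peaks were the strongest rows of the pooled list.

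Genes came from Ensembl release 115 and sequence from the RefSeq release 6 assembly; no peak ended beyond an arm. Summits were assigned by gene body or nearest protein-coding TSS, replicate summits matched within 200 bp, and windows extended 100 bp to either side. Wilson intervals (95%) were computed with scipy 1.17.1, in Python 3.11.15 with numpy 2.4.6, pandas 2.3.3 and matplotlib 3.10.9. Assignment was checked on simulated peaks. Named were all Obp genes with an IDR summit, all Obp99 genes, up to 10 others by relaxed signal (8 existed), the nearest and farthest uncalled genes, and lush; further genes without a summit were named after their values were seen. Chemosensory lists were fixed by symbol. Members and lists were chosen with earlier results of these data known. The background of short genes, the run GGCGCCATC and the distance without each replicate were added after seeing the data. Alternatives were other distances, windows and assignment rules, the 3919 strongest IDR peaks, and each replicate alone. Replicate depth is unknown.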

Additional observations from a re-analysis of the deposited data

How the results depend on the processing

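Of the 14 Obp genes called by an IDR summit, 9 remained with only the 3919 strongest IDR peaks (17.6%, beside 18.9% of all genes). By gene body alone 0 were called, beside 14.8% of all genes and 2.10% of genes of up to 2000 bp. When start sites of all gene kinds competed 8 remained, and no share of all genes is given for that rule. The genes lost were Obp51a, Obp56g, Obp56h, Obp56i, Obp57a and Obp99d, whose summits lay nearer to the start of a gene of another kind. Leaving out either replicate, that is, taking the 7838 strongest peaks of the other, gave 13 both times (25.5%), all among the 14. The share of all genes was 29.0% without replicate 3 and 28.0% without replicate 4. By gene body alone the relaxed count of 22 was 4 (7.84%, beside 23.4% of all genes, a share not computed for short genes). Without either replicate it was 21 (41.2%), beside 47.2% of all genes without replicate 3 and 42.9% without replicate 4. The 4 promoter genes became 17 at 5000 bp (33.3%, beside 40.5% of all genes) and 2 with the strongest peaks, beside 13.2%. They were the same 4 without replicate 3, beside 22.2% of all genes. Without replicate 4 the count was again 4, beside 20.5%, of which 3 were shared, with Obp83cd in place of Obp46a. The 8 Obp99 summits were 5 with all gene kinds, where Obp99d had none, 4 with the strongest peaks and 0 by gene body. Either replicate alone gave 8; without replicate 3 all 8 had a summit within 200 bp among them, and without replicate 4 only 7 had, the weak Obp99b summit being lost. The median distance of 10867 bp was 13814 bp with the strongest peaks and ran from 9400 to 10914 bp without a replicate. With 50 bp to either side of a summit, CAGTGTA was in 1 window (3.85%, beside 1.84% of all windows) and GAGAG in 2 (7.69%, beside 8.65%). There, CAGCTG was in 0, beside 2.18%, and TATAAA in 5 (19.2%, beside 25.6%). With 200 bp, GAGAG was in 15 (57.7%, beside 44.3%) and CAGCTG in 7 (26.9%, beside 16.6%). At that width CAGTGTA was in 4 (15.4%, beside 13.7%) and TATAAA in 15 (57.7%, beside 53.8%). The direction of these differences thus changed with window size for every run listed here but CAGTGTA. The cause of the changes without a replicate was not tested; the others come with fewer peaks, other distances or competing start sites by construction. The other 26 alternative values stayed within 1.5 times the main count or, for the distance, within 1 SD between replicates. They include those above without a replicate except the 9400 bp, and the counts of CAGTGTA and TATAAA with 200 bp. Some of the 26 could not have changed. With no IDR summit in an Obp body, the nearest start site alone must give the same IDR calls. Adding lush, which has no summit, cannot change the count either. The SD comes from only 9400 and 10914 bp, the values it is used to judge. No paired analysis was possible because there is 1 group. With 2 replicates of unknown depth, a gene without a summit was not detected as bound at this depth, which is not evidence that it is unbound. No control list was analysed here.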

Other observations

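Of 12 genes that regulate olfactory organs or neuron identity, 5 were assigned an IDR summit (41.7%, beside 27.8% of all genes). They were Dll, a homeobox gene of appendage and antennal development (287, rank 4658), Xbp1, a factor of the unfolded protein response (707, rank 1677), fru, a sex determination factor in neurons (678, rank 1760), acj6, a POU factor that specifies olfactory neurons (409, rank 3262), and lz, a Runx factor of sensillum types (207, rank 6512). Dll, Xbp1 and fru had a summit within 1000 bp of a TSS, at 77, 85 and 165 bp. For acj6 and lz the nearest IDR summit lay 5083 and 11108 bp from a TSS. No IDR summit was assigned to amos, ato, ey, onecut, pdm3, ss or toy. Gene length was not taken into account. The 5 called genes and those that follow are named by their values, and the lists were chosen with earlier results of these data known.

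Among chemosensory genes outside the Obp family, Gr93a, a gustatory receptor, and CheA75a were each assigned 7 IDR summits, with strongest signal values of 972 (rank 1058) and 941 (rank 1125). Neither had a summit within 1000 bp of its TSS. Or67d, the receptor for the pheromone cVA that lush binds, was assigned 4 summits, the strongest at 517 (rank 2462), with the nearest 10192 bp from its TSS. Or10a and Gr10a are listed with the same single summit (182, rank 7309), so they are not separate cases.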
